A study of Schmidtea mediterranea with 24 samples.

Results

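The change in RNA abundance between 0 h and 4 days of regeneration was followed in planarian tail fragments in which the gene egr-2 had been targeted by RNA interference. The 8 libraries were chosen by their labels alone, 4 taken 4 days after amputation and 4 taken at 0 h, of 24 libraries in all. Both groups came from the asexual clonal line CIW4 of the flatworm Schmidtea mediterranea. All of these animals had been given 6 meals holding 2 µg of double-stranded RNA against egr-2 and were then starved for 7 days before they were cut. Each replicate pooled the front part, next to the cut, of 10 tail fragments, so a library is an average over animals and over every tissue near the cut. Control animals, which serve here as a comparison, were handled in the same way with double-stranded RNA against egfp, a gene that planarians lack. Libraries from control fragments at 4 days, 2 days and 0 h, again 4 each, and 4 egr-2 RNAi libraries from 2 days are used below where named.

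Planarians regrow any missing body part from a population of dividing adult stem cells, the neoblasts. A tail fragment closes its wound, forms a blastema of new tissue at the anterior edge and there builds a new head, while the old tissue behind the cut is reshaped to the smaller body. RNA interference lowers the RNA of a chosen gene throughout the animal. The egr genes code for zinc finger transcription factors, and in mammals members of that family are known as genes that respond quickly to a stimulus.

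RNA was counted per assembled transcript contig, and each contig has an ID beginning with dd_Smed_v6. The tables pair no ID with a gene name, so no role is given for any ID, the tissue label was not checked against marker genes and the level of egr-2 itself was not checked. Total counts were 26051142 to 29568965 in the 4 day libraries and 18829638 to 26924688 in the 0 h libraries. All 12 pairs of replicates differed by more than counting noise, with a chi-square per degree of freedom of 3.72 to 25.9. The labels call the replicates biological but do not say whether they came from separate cultures, and p-values measure the spread between these samples. Replicate 1 of the 0 h group stood apart. The SD of its log2 deviations from its group mates was 0.633, against 0.349 to 0.398 in the other 0 h libraries, while the 4 day libraries had 0.249 to 0.257. It also had the fewest IDs with any count, 22962, where the other 0 h libraries had 24392 to 25080. Its total of 18829638 counts was the lowest of the 8 libraries, and fewer counts leave fewer IDs seen. Replicate 4 of the 0 h group was also somewhat apart, with a chi-square per degree of freedom of 15.8 and 16.5 against replicates 2 and 3, which gave 5.53 between them. The median SD across replicates of log2 CPM (counts scaled by library size) was 0.112 at 4 days and 0.188 at 0 h, or 0.141 at 0 h without that library.

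A large part of the measured transcripts changed between 0 h and 4 days in egr-2 RNAi fragments. Of 18569 IDs with enough counts to be tested, edgeR's quasi-likelihood test called 8562, or 46.1%, at a Benjamini-Hochberg adjusted p below 0.05. At 4 days 4048 IDs (21.8% of those tested) were higher and 4514 (24.3%) lower than at 0 h. Most changes were small, with a median size of 0.55 on the log2 scale among the calls. The CPM of the groups did not overlap, in the called direction, for 7654 of the 8562. Over all tested IDs, called or not, the groups were apart with the higher values at 4 days for 21.9% and with the lower for 22.4%. The balance between directions is relative to the scaling. The factors used here (TMM) leave the median log2 change, over every tested ID, at 0.021, whereas scaling by total counts alone puts it at 0.36 and calls 9468 IDs higher and 1990 lower, so that 82.6% of its calls were higher in place of 47.3%. Bulk tissue was measured, so fewer cells of a type and less RNA per cell cannot be told apart, and the same holds for increases.

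The larger changes leaned towards loss. Tested against a fold of 2, rather than against no change, 911 IDs (4.91%) passed, 347 (1.87%) higher and 564 (3.04%) lower at 4 days. Scaling by total counts alone turned that balance round, with 646 higher and 361 lower. Among the calls, rises of 4-fold or more numbered 215 and falls of that size 299. At 16-fold or more there were 40 rises and 114 falls. At 32-fold the counts were 20 rises and 83 falls. In the plot of change against abundance the strongest falls reached into the most abundant transcripts, while the strongest rises did not.

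**Figure D1:**
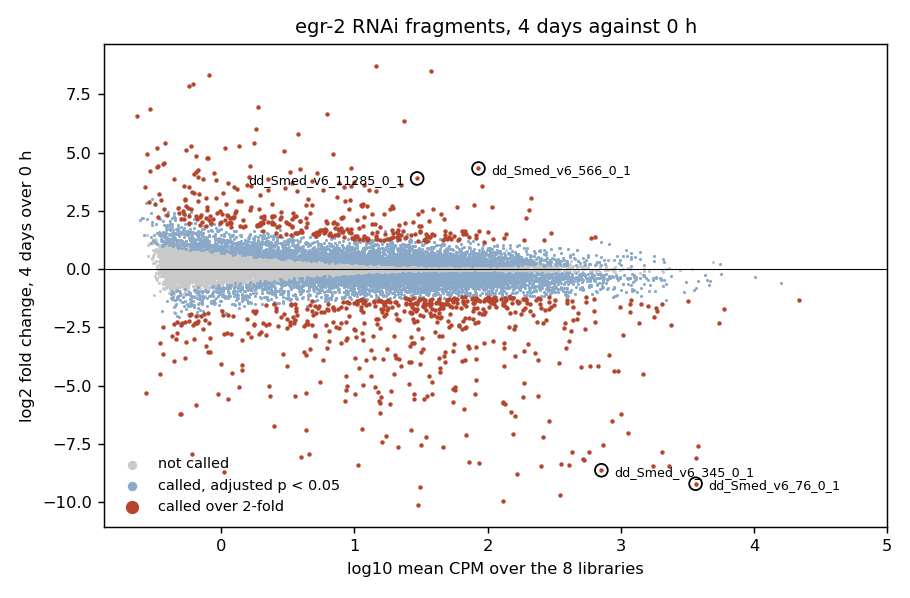
Log2 fold change (4 days over 0 h, y axis) against log10 mean CPM over the 8 egr-2 RNAi libraries (x axis), 1 point per tested ID; red points passed the test against a 2-fold change and circles mark 4 named IDs. Large falls extend to abundant transcripts such as dd_Smed_v6_76_0_1, at 7269.5 CPM at 0 h, and the 347 red points above 0 are outnumbered by the 564 below it.

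The 114 IDs with a fall of at least 16-fold included many of the abundant transcripts of the tissue at 0 h. Their mean levels at 0 h ran from 0.533 to 7526 CPM with a median of 68.5 CPM, against a median of 12.2 CPM over all tested IDs, and 50 of them stood at 100 CPM or more. At 4 days their median was 1.12 CPM, and 18 of them still had more than 10 CPM, up to 126 CPM. Together they held 0.0951%, 0.108%, 0.0919% and 0.0931% of the counts in the 4 libraries at 4 days, against 6.28%, 5.91%, 5.82% and 5.36% at 0 h. The 10 most abundant of them made up 63.2% of what the class held at 0 h. These contigs were short, with a median of 710 bases where the tested IDs had 1244. Since the class was picked by this contrast, its levels are a description. The class does not rest on replicate 1 of the 0 h group, since leaving that library out kept all 114 called lower.

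The IDs with a rise of at least 4-fold were scarce transcripts at 0 h. The 215 had a median of 2.07 CPM at 4 days, with the highest at 376 CPM, and a median of 0.272 CPM at 0 h, with the highest at 70.2 CPM. Over all tested IDs the medians were 11.9 CPM at 4 days and 12.2 CPM at 0 h. This class too was picked by the contrast, so its levels are a description. Together the 215 held 0.358% to 0.389% of the counts at 4 days and 0.0389% to 0.0477% at 0 h. All 215 were also called higher without replicate 1 of the 0 h group. Some began at or near nothing: 19 IDs had at most 3 counts in each 0 h library and a mean of at least 1 CPM at 4 days. Their 4 day means ran from 1.06 to 29.0 CPM with a median of 1.54 CPM, and 9 of the 19 met the same rule in control fragments. In control fragments at 0 h the 19 averaged at most 0.219 CPM. Missing the rule there does not mean that a rise was absent. The highest of the 19 at 4 days was dd_Smed_v6_554_0_1, a contig of 394 bases named after its values were seen. Its mean under egr-2 RNAi was 29.0 CPM at 4 days and 0.0622 CPM at 0 h. In control fragments its means were 53.7 CPM at 4 days and 0.157 CPM at 0 h. In the other direction 8 IDs had at most 3 counts in each 4 day library and means of 1.22 to 9.09 CPM at 0 h.

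Among called IDs that averaged 1 CPM or more at both times, and 10 CPM at one of them, the largest rise was that of dd_Smed_v6_566_0_1, a contig of 679 bases. It had 193, 138, 139 and 181 CPM in the 4 libraries at 4 days, against 7.18, 8.12, 8.87 and 8.19 CPM at 0 h. Every 4 day library was far above every 0 h library. The log2 fold change was 4.32 (SE 0.13, adjusted p of 2.9e-11 by edgeR), or 19.9-fold. At 2 days it averaged 41.8 ± 2.49 CPM (SD, n = 4), between the levels of the other times. In level per kilobase it stood at rank 409 of all IDs at 4 days and at rank 8021 at 0 h.

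The next largest rise was that of dd_Smed_v6_11285_0_1, of 2516 bases. It had 57.2, 47.6, 60.8 and 56.1 CPM at 4 days, against 4.28, 4.28, 3.43 and 3.07 CPM at 0 h. The groups were again far apart, and the log2 fold change was 3.89 (SE 0.11, adjusted p of 2.76e-11 by edgeR). At 2 days its mean was 23.4 ± 3.23 CPM (SD, n = 4). Neither rise depended on the 0 h library that stood apart: without it the log2 fold changes were 4.26 and 3.95 for dd_Smed_v6_566_0_1 and dd_Smed_v6_11285_0_1.

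The largest fall by the same rule was that of dd_Smed_v6_76_0_1, of 661 bases. It had 9.26, 17.1, 15.1 and 8.23 CPM at 4 days, against 8507, 7308, 7084 and 6180.0 CPM at 0 h. In level per kilobase it stood at rank 5772 at 4 days and at rank 3 at 0 h. The log2 fold change was -9.20 (SE 0.25, adjusted p of 1.72e-11 by edgeR), a level 588-fold lower at 4 days. At 2 days the 4 libraries had 326, 256, 403 and 270.4 CPM, between the levels of the other times.

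The next largest fall was that of dd_Smed_v6_345_0_1, of 806 bases. It had 3.22, 5.05, 3.77 and 2.50 CPM at 4 days, against 1762, 1503, 1453 and 984 CPM at 0 h. The groups did not come near each other, and the log2 fold change was -8.62 (SE 0.24, adjusted p of 1.72e-11 by edgeR). At 2 days the mean was 46.0 ± 16.2 CPM (SD, n = 4). Without replicate 1 of the 0 h group the log2 fold changes were -9.13 for dd_Smed_v6_76_0_1 and -8.52 for dd_Smed_v6_345_0_1. In control fragments the log2 fold changes were 4.71 and 4.21 for the 2 rises, in the order given, and -8.61 and -7.99 for the 2 falls. The difference in log2 fold change, egr-2 RNAi minus control, was -0.39 (SE 0.18) for dd_Smed_v6_566_0_1, -0.32 (SE 0.16) for dd_Smed_v6_11285_0_1, -0.59 (SE 0.28) for dd_Smed_v6_76_0_1 and -0.64 (SE 0.23) for dd_Smed_v6_345_0_1. None of these was called in the test over 16 libraries (adjusted p of 0.31 to 0.467 by edgeR), which does not show that the conditions were alike. Set directly against control in the same libraries, dd_Smed_v6_345_0_1 was lower under egr-2 RNAi at 4 days by a log2 difference of -1.05 (edgeR adjusted p of 0.00305), and dd_Smed_v6_566_0_1 was higher at 0 h by 0.60 (edgeR adjusted p of 0.0254).

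**Figure D2:**
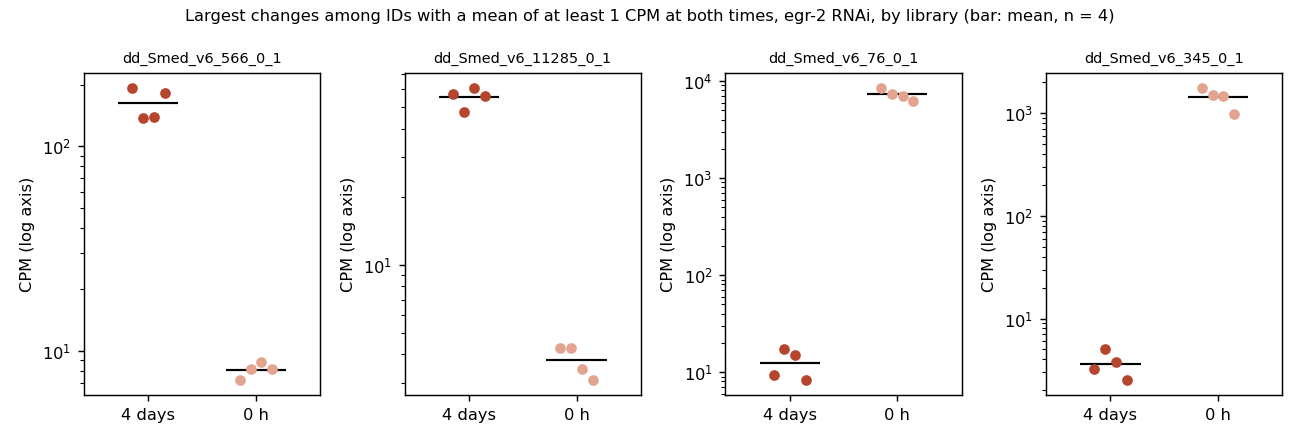
CPM (log axis) of the 4 IDs in each egr-2 RNAi library, 4 days left and 0 h right, with bars at the means of 4 replicates. In each panel the groups lie far apart, and the 0 h libraries of dd_Smed_v6_76_0_1 lie at 6180.0 CPM or above.

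The most abundant transcripts of the tissue were partly exchanged. Of the 100 IDs with the highest level per kilobase at 4 days, 62 were also among the 100 highest at 0 h. Of the 100 highest at 0 h, 87 were called lower at 4 days, 32 of them by at least 4-fold and 21 by at least 16-fold, where 24.3% of all tested IDs and 43.7% of the most abundant of 5 classes by mean CPM were called lower. Of the 100 highest at 4 days, 12 were called higher and 66 lower, and no ID among them had a rise of at least 4-fold. Both lists were picked by a level that is one side of the contrast, so these counts are a description, and the direction of the calls is relative to TMM scaling.

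Abundance and contig length both went with the calls. With IDs divided by mean CPM into 5 classes of equal size, 22.6% of the least abundant and 67.1% of the most abundant class were called, and the median SE of the log2 fold change was 0.36 and 0.067 in those classes. Of the lowest class 15.8% were called higher and 6.84% lower, and of the highest 23.4% were higher and 43.7% lower. With 5 classes by length, 34.9% of the longest contigs (2152 bases or more) and 13.1% of the shortest (689 bases or less) were called higher. Called lower were 20.6% of the longest and 21.4% of the shortest. In control fragments the longest class had 36.2% higher and 29.3% lower, and the shortest 18.6% higher and 20.5% lower. Whether length itself bears on the counts was not tested. Of contigs that share a component number of the assembly, and may therefore share reads, 157 pairs were tested, and both members were called in 42. These changed in the same direction in 33 pairs and in opposite directions in 9. In 74 other pairs the call was not shared by both members. Of all tested IDs 46.1% were called, and whether 42 pairs is more than that share would give was not tested.

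Leaving out replicate 1 of the 0 h group raised the number of calls slightly. With 7 libraries 19093 IDs passed the filter and 9216 (48.3%) were called, 4459 (23.4%) higher and 4757 (24.9%) lower. Of the 8562 calls, 8185 remained, none with the opposite direction, 377 were lost, and 925 IDs of the same 18569 were gained. The test against a 2-fold change called 958 (5.02%) in place of 911, with 380 (1.99%) higher and 578 (3.03%) lower. The log2 fold change moved by a median of 0.056, and 7 IDs moved by more than 1 on the log2 scale, each of them lower with that library than without it. Without replicate 4 of the 0 h group 7868 IDs were called, 3634 higher and 4234 lower, and 842 passed the test against a 2-fold change.

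The same interval was measured in control RNAi fragments, which share no library with the egr-2 RNAi fragments. There 9974 of 18489 tested IDs (53.9%) were called, 4989 (27%) higher and 4985 (27%) lower at 4 days. With total counts alone the balance in control was 9399 higher and 2415 lower, or 79.6% higher. Both conditions called 7134 IDs in the same direction, which is 84.2% of the egr-2 RNAi calls and 72.2% of the control calls among the 18139 IDs tested in both. A call in 1 condition and not in the other is not by itself a difference between them. Of 1334 IDs called in egr-2 RNAi fragments and not in control, 1 was called in a test of the difference itself. Of 2743 called in control and not in egr-2 RNAi fragments, 3 were. That test called 0.184% of all the IDs it covered, so these low counts do not show that the changes were alike. The ID called in egr-2 RNAi fragments alone was dd_Smed_v6_1480_0_1, of 1290 bases, named after its values were seen. Its mean was 109 ± 8.49 CPM at 4 days and 199.9 ± 14.8 CPM at 0 h in egr-2 RNAi fragments, and 97.0 ± 8.64 and 109 ± 16.1 CPM in control fragments (SD, n = 4 each). Its difference in log2 fold change was -0.69 (SE 0.13, adjusted p of 0.0299 by edgeR), and it was called in 14 of 23 alternatives. The call was lost without egr-2 RNAi replicate 4 at 0 h, egr-2 RNAi replicates 2, 3 or 4 at 4 days, control replicates 1 or 3 at 0 h, or control replicates 1, 3 or 4 at 4 days. In those fits the edgeR adjusted p was 0.0514 to 0.0994, and over all 23 alternatives the difference was -0.76 to -0.60.

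Classes of transcripts fixed in the control libraries moved the same way in egr-2 RNAi fragments, where their change was not used to choose them. Of 112 IDs at least 16-fold lower in control fragments, 107 were called lower under egr-2 RNAi, and the rest did not pass the filter on counts there. Of 274 IDs at least 4-fold lower in control, 262 passed that filter and 260 were called lower. Of 234 IDs at least 4-fold higher in control, 216 passed it and 213 were called higher. The 46 of 51 IDs at least 16-fold higher in control that passed the filter were each called higher. Over all tested IDs the shares called lower and higher were 24.3% and 21.8%.

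The 112 control-chosen IDs held 5.68%, 5.31%, 5.20% and 4.67% of the counts in the egr-2 RNAi libraries at 0 h. At 2 days they held 0.322%, 0.256%, 0.371% and 0.294%, and at 4 days 0.0543%, 0.0641%, 0.0540% and 0.0566%. No group overlapped another, and most of the class had gone by 2 days. The difference between 4 days and 0 h was -5.16 percentage points. Its 2-sided exact permutation p was 0.029, the smallest that 8 libraries allow, and 0.057 after Benjamini-Hochberg adjustment over 18 such tests, so no one of them could pass 0.05 on its own. The mean share at 0 h was 5.06% without replicate 1. At 4 days the class averaged 0.0573% ± 0.0047 in egr-2 RNAi and 0.0596% ± 0.0105 in control fragments (SD, n = 4 each), and at 0 h 5.21% ± 0.42 in egr-2 RNAi and 5.64% ± 0.35 in control fragments. The exact permutation p of these comparisons, with n = 4 each, were 0.74 at 4 days and 0.23 at 0 h, or 0.74 and 0.32 after adjustment. Because the control libraries chose the class, a higher control share at 0 h and a lower one at 4 days are favoured. Neither a difference nor a likeness of the conditions is read from these p-values.

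The 234 control-chosen rising IDs held 0.0472% ± 0.0018 of the counts at 0 h, 0.409% ± 0.015 at 2 days and 0.376% ± 0.013 at 4 days in egr-2 RNAi fragments (SD, n = 4 each). The 2 day libraries all lay above the 4 day libraries, and both lay above those of 0 h. In control fragments they held 0.0484% ± 0.0022, 0.394% ± 0.018 and 0.405% ± 0.014 at the same times. At 4 days egr-2 RNAi libraries had 0.364% to 0.394% and control libraries 0.391% to 0.420%. These ranges overlapped, and the exact permutation p, with n = 4 each, was 0.057 before and 0.094 after adjustment. The choice of the class in the control libraries favours a higher control share at 4 days. The 215 IDs chosen in egr-2 RNAi libraries had the opposite order at 4 days, with a mean of 0.371% in egr-2 RNAi and 0.365% in control fragments, so no difference between the conditions is read from either class.

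**Figure D3:**
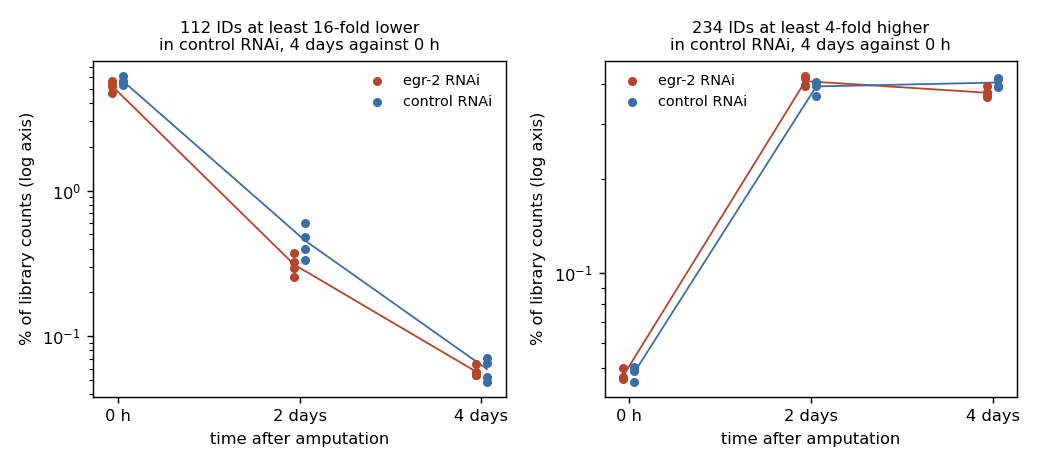
Percent of library counts (log axis) at 0 h, 2 days and 4 days held by IDs chosen in control libraries, 112 that were at least 16-fold lower (left) and 234 at least 4-fold higher (right); points are libraries, lines join means, egr-2 RNAi in red and control RNAi in blue. The egr-2 RNAi means of the falling class were 5.21%, 0.311% and 0.0573%, and those of the rising class 0.0472%, 0.409% and 0.376%.

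A test of the difference itself, in a fit of the 16 libraries of 0 h and 4 days, asked which transcripts changed by another amount under egr-2 RNAi than in control. It called 36 of 19537 IDs (0.184%), 29 (0.148%) with the lower and 7 (0.0358%) with the higher value under egr-2 RNAi, and 2157 IDs had an unadjusted p below 0.05. The balance of directions moved with the scaling and with single libraries. Total counts alone gave 34 calls, 19 lower and 15 higher, of which 26 were among the 36. Leaving out egr-2 RNAi replicate 1 at 0 h gave 42 lower and 24 higher. The sizes of the 36 were modest, from -0.97 to 1.01 on the log2 scale. The 29 were mostly transcripts that declined in both conditions and declined more under egr-2 RNAi. Both conditions called 22 of them lower at 4 days, and the median log2 fold change was -1.99 in egr-2 RNAi and -1.30 in control fragments. All 29 were higher in egr-2 RNAi than in control fragments at 0 h, with TMM, RLE and total count scaling alike. The median log2 difference between the RNAi conditions was -0.13 at 4 days and 0.50 at 0 h, so the gap lay at 0 h for the most part. For 24 of the 29 it was larger at 0 h than at 4 days. Of the 18139 IDs tested in both conditions, 11483 also had the larger gap at 0 h. Of those 18139, 9754 were higher in egr-2 RNAi at 0 h, and 3750 were called lower in both conditions. The 2 largest of the 29 differences had the larger gap at 4 days. These were dd_Smed_v6_11220_0_1 (0.31 at 0 h and -0.67 at 4 days) and dd_Smed_v6_1350_0_1 (0.39 and -0.53). For the 7 IDs with the higher value, the median gap was -0.18 at 0 h and 0.27 at 4 days. Only 1 of the 7 had the larger gap at 0 h. The gaps of the 29 and of the 7 come from the same libraries as the test and are a description of it.

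**Figure D4:**
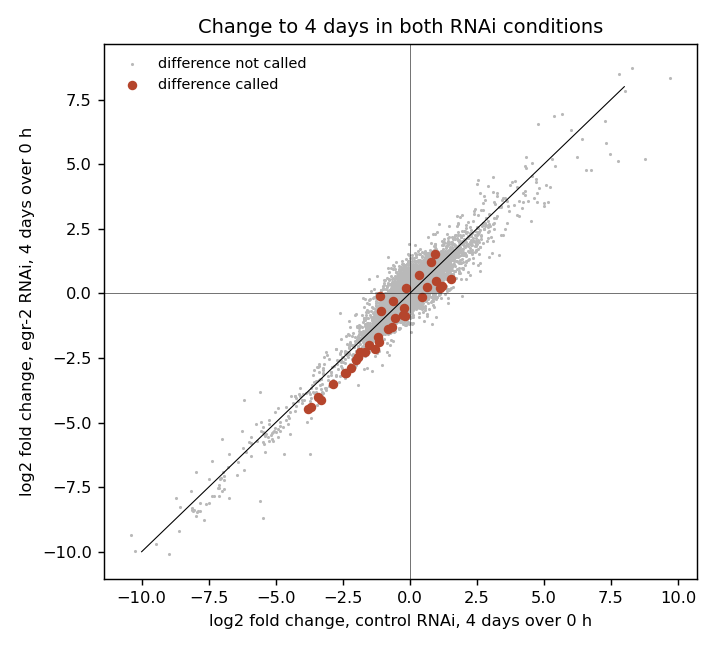
Log2 fold change of 4 days over 0 h in egr-2 RNAi (y axis) against control RNAi (x axis), 1 point per ID, with the line of equal change; red points are IDs whose difference was called. Most points lie along the line, and the red points below it are mainly transcripts that fell in both conditions.

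The largest difference towards a higher value under egr-2 RNAi was that of dd_Smed_v6_1616_0_1, of 692 bases. In egr-2 RNAi fragments it had 9.83, 11.1, 7.41 and 7.67 CPM at 4 days, against 11.3, 8.90, 8.30 and 10.2 CPM at 0 h. Those groups overlapped, and its change there was not called, at -0.11 on the log2 scale (SE 0.15; edgeR adjusted p of 0.583). In control fragments it had 7.60, 5.90, 5.41 and 6.72 CPM at 4 days, against 11.9 to 15.1 CPM at 0 h. There it fell by 1.12 on the log2 scale. The difference was 1.01 (SE 0.20, adjusted p of 0.0333 by edgeR).

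The next was dd_Smed_v6_2701_0_1, of 884 bases, which rose in both conditions and rose more under egr-2 RNAi. It had 183, 219, 214 and 204 CPM at 4 days, against 82.7, 69.5, 67.4 and 64.3 CPM at 0 h, in egr-2 RNAi fragments. In control fragments the means were 143 ± 14.6 CPM at 4 days and 73.8 ± 3.25 CPM at 0 h (SD, n = 4 each). The log2 fold changes were 1.52 (SE 0.084) and 0.93 (SE 0.066), and they differed by 0.59 (SE 0.11, adjusted p of 0.0333 by edgeR). At 2 days it averaged 255 ± 13.6 CPM in egr-2 RNAi and 269.9 ± 29.8 CPM in control fragments (SD, n = 4 each).

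The largest difference towards a lower value was that of dd_Smed_v6_11220_0_1, of 1382 bases. It had 11.2, 10.1, 11.1 and 9.98 CPM at 4 days, against 8.57, 5.40, 6.77 and 8.14 CPM at 0 h, in egr-2 RNAi fragments. In control fragments it had 17.5, 17.3, 15.6 and 17.5 CPM at 4 days, against 5.23, 6.87, 4.23 and 6.84 CPM at 0 h. It rose in both conditions, by 0.54 (SE 0.13; edgeR adjusted p of 0.00401) on the log2 scale under egr-2 RNAi and 1.52 (SE 0.12) in control. The difference was -0.97 (SE 0.19, adjusted p of 0.0333 by edgeR).

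The next was dd_Smed_v6_1350_0_1, of 1621 bases. It had 47.6, 41.4, 40.3 and 41.4 CPM at 4 days, against 38.0, 31.9, 33.8 and 43.7 CPM at 0 h, in egr-2 RNAi fragments. The groups overlapped, and the change of 0.20 on the log2 scale (SE 0.094; edgeR adjusted p of 0.0968) was not called. In control fragments it had 74.3, 63.4, 53.4 and 58.6 CPM at 4 days, against 30.1, 27.6, 24.7 and 30.5 CPM at 0 h, a log2 fold change of 1.12 (SE 0.090). The difference was -0.92 (SE 0.14, adjusted p of 0.00922 by edgeR). Another ID of this kind, dd_Smed_v6_4123_0_1, of 1974 bases, was named after its values were seen. It averaged 44.3 ± 4.47 CPM at 4 days and 48.1 ± 1.25 CPM at 0 h in egr-2 RNAi fragments, which was not called (adjusted p of 0.184 by edgeR). In control fragments it averaged 42.9 ± 0.22 CPM at 4 days and 30.9 ± 2.28 CPM at 0 h (SD, n = 4 each), and the difference was -0.57 (SE 0.095, adjusted p of 0.0138 by edgeR). That call was lost without egr-2 RNAi replicate 4 at 4 days (edgeR adjusted p of 0.0553).

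**Figure D5:**
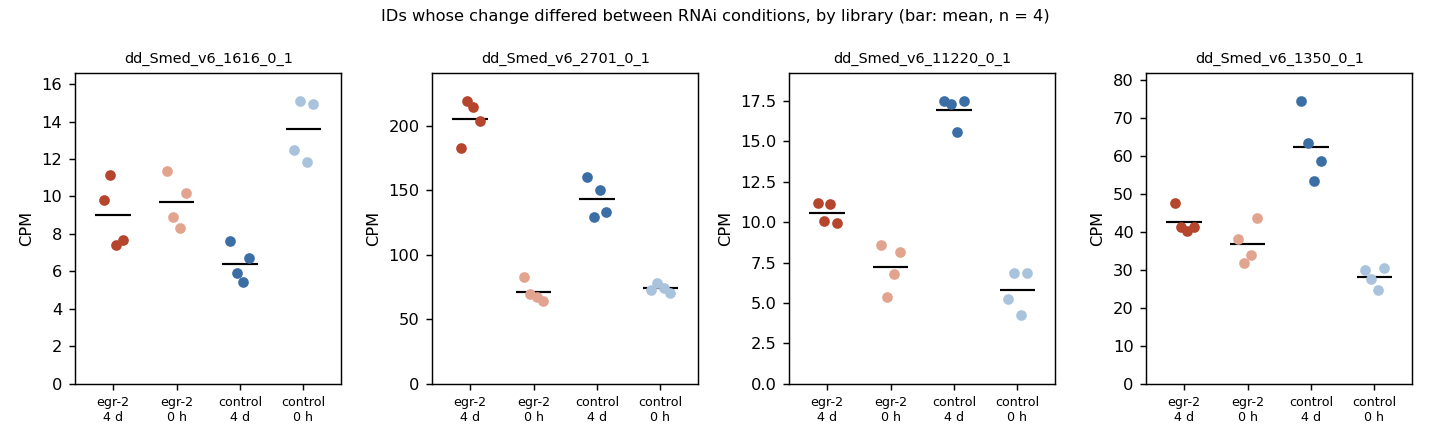
CPM of 4 IDs whose change differed between RNAi conditions, by library, with egr-2 RNAi at 4 days and 0 h left of control RNAi at 4 days and 0 h; bars are means of 4 replicates. For dd_Smed_v6_1616_0_1 and dd_Smed_v6_1350_0_1 the egr-2 RNAi groups overlap and the control groups do not.

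The number of such differences depended on single libraries. It was 66 without egr-2 RNAi replicate 1 at 0 h, and all 36 were among them. It was 15 without egr-2 RNAi replicate 4 at 0 h, and at 4 days, leaving out egr-2 RNAi replicates 2, 3 and 4 in turn, it was 19, 10 and 8. Without control replicates 1, 3 and 4 at 0 h it was 8, 10 and 21, and without control replicates 2 and 4 at 4 days it was 16 and 15. DESeq2 called 146, with all 36 among them. Of the 36, 6 were called under each of 23 alternatives, among them dd_Smed_v6_1350_0_1, and each of the 6 had the lower value under egr-2 RNAi. The call of dd_Smed_v6_1616_0_1 was kept without egr-2 RNAi replicate 1 at 0 h, egr-2 RNAi replicate 3 at 4 days and control replicate 1 at 4 days. It was lost without any other single library, with adjusted p of 0.0528 to 0.0932 by edgeR, and in the fit of all 24 libraries (0.101). The call of dd_Smed_v6_2701_0_1 was lost without egr-2 RNAi replicates 2 or 4 at 0 h, replicates 2, 3 or 4 of that RNAi at 4 days, any control replicate at 0 h, or control replicates 2 or 4 at 4 days (adjusted p of 0.0528 to 0.0868 by edgeR). That of dd_Smed_v6_11220_0_1 was lost without egr-2 RNAi replicate 4 at 0 h, any egr-2 RNAi replicate at 4 days, control replicates 1 or 3 at 0 h, or control replicates 1, 2 or 4 at 4 days (adjusted p of 0.0519 to 0.0926 by edgeR). The size of these differences stayed close to the value given: over the 23 alternatives it was 0.91 to 1.11 for dd_Smed_v6_1616_0_1, 0.55 to 0.67 for dd_Smed_v6_2701_0_1 and -1.09 to -0.84 for dd_Smed_v6_11220_0_1.

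The authors' deposited table called 9772 of 16812 IDs between 4 days and 0 h of egr-2 RNAi at a false discovery rate below 0.05, with 5005 higher and 4767 lower at 4 days. Of the calls in the authors' deposited table, 8245 were also called here, 1511 were not called here and none had the opposite direction. The balance in the authors' deposited table leaned towards higher, whereas here 4048 IDs were higher and 4514 lower. The balance here also moved with the libraries in the fit. With all 24 libraries 5074 IDs were called higher and 4929 lower, and with the 16 of 0 h and 4 days 4623 and 4941. Whether this bears on the gap to the authors' balance was not tested. Log2 fold changes in the authors' deposited table differed from those here by a median of 0.017.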

How the data were processed

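The deposited table gives counts per contig for 28069 IDs and 24 libraries. Its value columns were matched to samples by the sample descriptions and titles (0 unmatched). The submitters' processing notes name FastQC 0.11.5, Bowtie2 2.3.1 and featureCounts (Subread 1.6.3), and the design text adds BBDuk and edgeR. For the settings and strandedness, nothing is given in the sources used. The authors' deposited table of 7 comparisons holds log2 fold changes and log2 CPM averages, with adjusted p-values,, per the file headers.

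The main test was edgeR's quasi-likelihood test (edgeR 4.0.16, limma 3.58.1, R 4.3.3) on the 8 egr-2 RNAi libraries of 4 days and 0 h, with TMM factors, filterByExpr on those columns (minimum count 10, minimum total 15) and Benjamini-Hochberg adjustment at 0.05. The filter left 18569 IDs with 99.87% to 99.93% of the counts. Size was tested with glmTreat against 2-fold. Standard errors were derived from the F statistic. Control libraries were tested alike, and the difference between conditions as an interaction contrast over 16 libraries. Printed CPM were computed from the deposited counts with TMM factors of all 24 libraries. Methods were tested on simulated data in which 200 IDs changed by 2-fold, and 5.66% of the calls in the main comparison were false. Far more IDs were called in the real data, so the simulation does not test the scaling or the error rate there.

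Named IDs were, for the change over time, the 2 largest rises and falls among called IDs without overlap of CPM, with a mean of at least 10 CPM where higher and 1 CPM where lower (2393 rises and 3279 falls qualified). For the difference between conditions they were the 2 largest in each direction among called IDs with at least 1 CPM in each of 4 groups (7 and 29 qualified). The groups, classes and rules were chosen with earlier results of these data known. The 112 and 234 control-chosen IDs and the exact permutation tests on them were added after seeing the data. Planned gene lists needed gene names and were not run. Alternatives were RLE factors, total counts alone, other filters, DESeq2 1.42.0, a likelihood ratio test, more libraries in the fit, other tested folds, the replicate number as a block and leaving out each library.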

Additional observations from a re-analysis of the deposited data

Results flagged for a closer look

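Among 45 groups of 4 library values, 5 held one value well outside the rest, a pattern that arises by chance in about 1 of 20 groups. At 0 h, egr-2 RNAi replicate 1 scored -73.3 on the first principal component of the 8 libraries, which held 69.9% of the variance, while its mates lay between -51.8 and -50.0. On the second component, with 14.9% of the variance, its score was 59.8 and its mates had -29.6 to -15.8. In egr-2 RNAi fragments at 4 days, replicate 1 held 7.31% of its counts in its 10 most abundant IDs, and the group averaged 7.13% ± 0.12 (SD, n = 4). For dd_Smed_v6_1350_0_1 the same library had 47.6 CPM, with 40.3 to 41.4 CPM in its mates. For dd_Smed_v6_11220_0_1 control replicate 3 at 4 days had 15.6 CPM, with 17.3 to 17.5 CPM in its mates.

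The change from 0 h to 4 days differed between egr-2 RNAi and control fragments for 36 IDs by the interaction test. Those named above were dd_Smed_v6_1616_0_1 (log2 difference 1.01), dd_Smed_v6_2701_0_1 (0.59), dd_Smed_v6_11220_0_1 (-0.97) and dd_Smed_v6_1350_0_1 (-0.92).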

How the results depend on the processing

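Over 17 alternatives the count of 8562 changed IDs ranged from 7481 to 11458, within 1.5 times, and leaving out single libraries gave 7481 to 9216. The count of 9974 in control fragments ranged from 9238 to 11814 over 10 alternatives, 9238 to 9786 without single libraries. The 911 changes over 2-fold were 821 to 958 without single libraries, 2063 when tested against 1.5-fold and 289 against 4-fold, which test another size by construction. The 36 differences between RNAi conditions were 8 to 66 without single libraries, 146 by DESeq2 and 56 in the fit of all 24 libraries, which shared 27 of the 36. The cause was not tested. The difference of -5.16 percentage points in the share of counts was -5.34 to -5.00 without single libraries, an alternative chosen after seeing the data. Same-numbered libraries of 4 days and 0 h deviated from their group means with correlations of -0.027 to 0.033. Between libraries of other numbers they were -0.058 to 0.048. No pairing by number was seen, which does not show that none exists. With the replicate number as a block 8025 IDs changed, 860 over 2-fold and 9748 in control, and 52 differed between conditions. No named ID reversed. Weakly expressed IDs limit the test, with a median SE of 0.36 in the lowest of 5 abundance classes.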
